A study of Mus musculus with 2 samples.

Results

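The 37 genes of glycolysis, gluconeogenesis, fructose entry and the pentose phosphate pathway were examined in DSS-treated and control mouse intestinal organoids (mIOs). They were picked out by gene symbol, and each was found among the 19294 genes of the count table. The organoids were grown from jejunal crypts of Lgr5-EGFP-IRES-creERT2 mice, which carry EGFP and an inducible Cre at the stem cell gene Lgr5, and this allele is shared by both groups. Both cultures grew in Matrigel under EGF, Noggin and R-spondin. One was left untreated as the control. The other received the epithelial irritant dextran sulfate sodium (DSS) for 4 days, at a concentration that is not given for sequencing in the sources used here. RNA of each culture was sequenced once, as a stranded poly(A) library, and gave 65493032 counts for the control and 59746968 for DSS.

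There were no replicates, so no test between conditions was possible and no p-value is given. Each gene is described by its log2 ratio, DSS over control, of counts scaled with TMM factors (a scaling that sets the bulk of genes equal). Its interval is an exact Clopper-Pearson 95% interval from the counts of both libraries. It covers counting error only and not the variation between cultures. Levels within a library are given as counts scaled to an equal library size (CPM), and levels of different genes are compared only as CPM per kb of transcript.

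Glycolysis splits glucose into pyruvate and yields ATP, and most of its steps are served by isozymes from separate genes. Gluconeogenesis runs towards glucose and bypasses the irreversible steps through pyruvate carboxylase, phosphoenolpyruvate (PEP) carboxykinase, fructose bisphosphatase and glucose 6-phosphatase. Fructose enters below phosphofructokinase, with ketohexokinase and triokinase among its enzymes. In the small intestine, enterocytes of the villus express fructose-metabolizing and gluconeogenic enzymes, whereas proliferating crypt cells are known for glycolysis. The pentose phosphate pathway draws on glucose 6-phosphate for NADPH and ribose.

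Of the genes from hexose to triose phosphate, 5 of 9 had a log2 ratio within 0.3 of 0, as did 3 of 7 from triose phosphate to pyruvate. None of the 2 fructose entry, 6 gluconeogenesis or 3 fructose 2,6-bisphosphate control genes did. For lactate dehydrogenase it was 1 of 2, and for pyruvate dehydrogenase and its kinases 1 of 4. In the pentose phosphate pathway it was 2 of 4, and over all members 12 of 37. The share of all genes within this band was not computed, and the quartiles of all genes were -0.79 and 0.73. Of the 37 genes, 7 were at a log2 ratio of 1 or more, and 3 were at -1 or less. At 2 or more were 2 genes, against 7.87% of all genes, and 0 were at -2 or less, against 6.54%. Of the 17235 genes that reached 10 counts in the control or the DSS library, 19.3% reached 1 or more and 20.2% were at -1 or less. The corresponding shares of the 37 genes were 18.9% and 8.11%. The share at 1 or more was therefore near that of all genes, and the share at -1 or less was below it. All 37 genes passed the same count minimum. Their median log2 ratio was 0.06 and that of all genes -0.06. Above 0 were 21 of the 37 genes, or 56.8%, against 48% of all genes. Scaled by total counts alone, every gene was lower by 0.26. The median of all genes was then -0.31, and 17 of the 37 were above 0. Summed over the 37 genes, the share of library counts was 2.49% for the control and 2.30% for DSS.

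**Figure D1:**
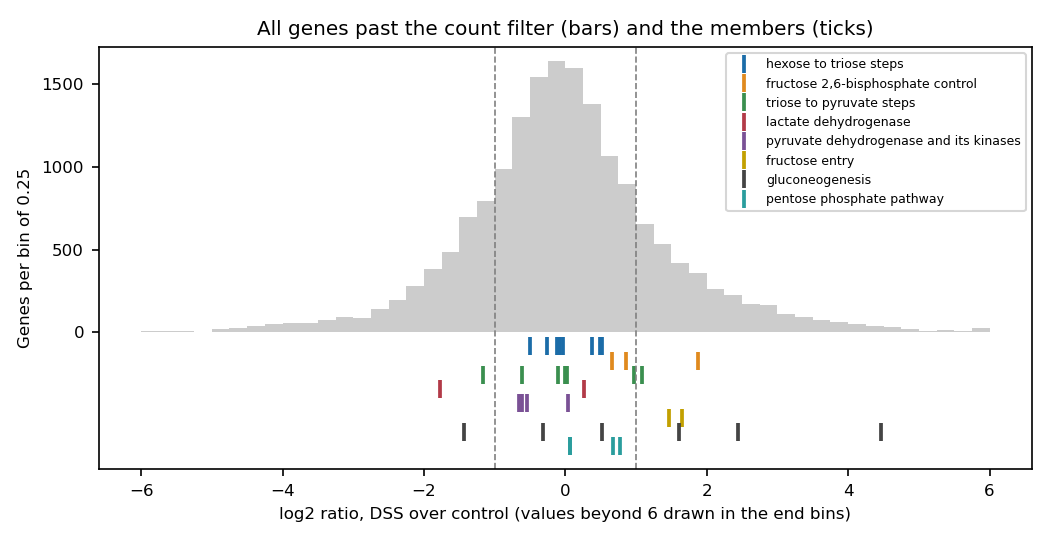
Log2 ratio of DSS over control on the x axis, with grey bars for the number of the 17235 genes in each bin and one row of ticks per branch for the 37 genes. The ticks of the hexose to triose steps gather near 0, while those of gluconeogenesis run from -1.44 to 4.46.

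The plot of log2 ratios by branch shows the order used here. Only 3 of the 37 intervals included 0, those of Pgam1, Eno1 and Pdk2, or 8.11% of them, against 18.6% of all genes. Such intervals narrow with more counts, so these shares also depend on how abundant the genes are. For the abundant genes, the choice of scaling moved the value by more than the interval did.

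**Figure D2:**
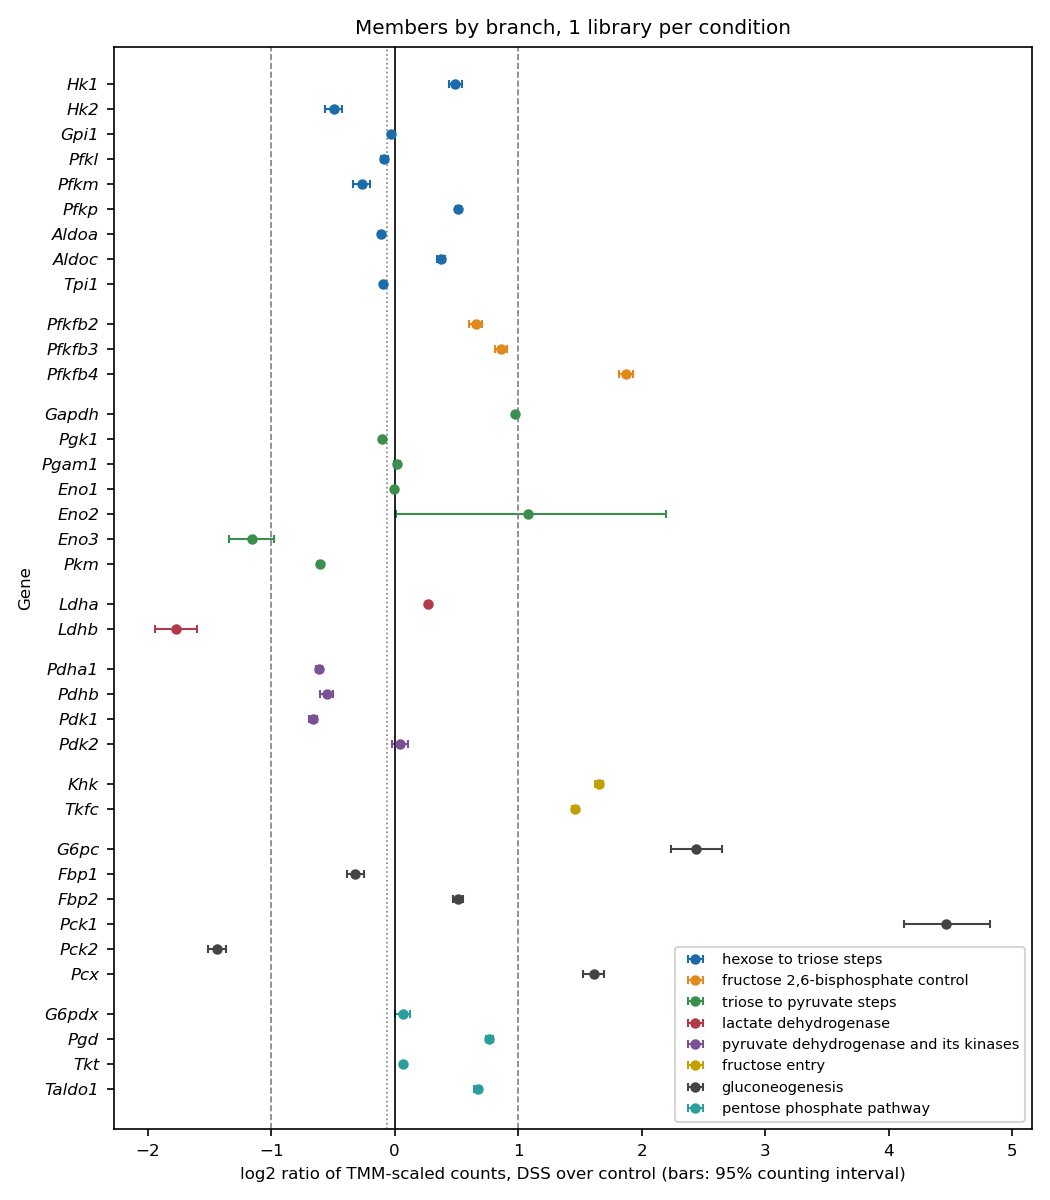
Log2 ratio of TMM-scaled counts, DSS over control, for each of the 37 genes, with bars for the 95% counting interval, dashed lines at -1 and 1, a dotted line at the median of all genes and colors for branches. Pck1 at 4.46 and G6pc at 2.44 lie farthest to the right and Ldhb at -1.77 farthest to the left, and the wide bar of Eno2 rests on 13 and 21 counts.

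The 9 genes that carry hexoses to triose phosphates were all between the lines of -1 and 1, from -0.49 to 0.52. Gpi1, which converts glucose 6-phosphate to fructose 6-phosphate, had 177524 counts in the control and 132922 under DSS. Its log2 ratio was -0.03. Aldoa, the main aldolase of most tissues, had 218187 and 154024 counts, for a log2 ratio of -0.11. Tpi1, the triose phosphate isomerase, was at -0.09 with 82446 and 59149 counts. These genes lay within 0.12 of 0 and close to the median of all genes, and the sign of Gpi1 turned positive with upper quartile factors.

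The hexokinases, which trap glucose in the cell, differed in opposite directions. Hk1 had 5946 counts in the control and 6393 under DSS, a log2 ratio of 0.49 (0.44 to 0.54.) Hk2, the isozyme known for its induction in proliferating cells, had 5155 and 2798 counts, a log2 ratio of -0.49 (-0.56 to -0.43.) The scaled level was thus higher in the DSS library for Hk1 and lower for Hk2. A comparison of both genes within each library does not depend on the scaling. The log2 odds ratio of Hk2 against Hk1 was -0.99, with a conditional exact interval from -1.07 to -0.90.

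Of the phosphofructokinases, which commit sugar to glycolysis, Pfkp was at 0.52 with 34098 and 37239 counts. Pfkl was at -0.08 with 28225 and 20364 counts, and Pfkm, the muscle-type subunit, was at -0.26 with 4310 and 2741 counts. Pfkp was the most abundant of these subunits per length in both libraries, with 52.3% of the family in the control (interval 52.0 to 52.7) and 62.9% in the DSS library (62.5 to 63.3). Pfkp against Pfkl differed by 0.60 (0.56 to 0.63). Aldoc, the aldolase best known from brain, was at 0.37 with 13509 and 13377 counts, and stayed far below Aldoa. Its level was 84.2 CPM per kb in the control and 109 under DSS, against 2018 and 1864 for Aldoa.

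The PFKFB enzymes make and break fructose 2,6-bisphosphate, the activator of phosphofructokinase and inhibitor of fructose bisphosphatase. All 3 listed members were higher in the DSS library. Pfkfb1, a PFKFB gene outside the members, was lower, at -0.89 with 264 and 109 counts. Pfkfb4 had 3494 counts in the control and 9792 under DSS, a 3.67-fold higher scaled level and a log2 ratio of 1.88 (1.82 to 1.93). Pfkfb3, known as the inducible isozyme with high kinase activity, was at 0.86 with 5857 and 8130 counts. Pfkfb2, the heart-type isozyme, was at 0.66 with 5682 and 6841 counts. Only Pfkfb4 was past the line of 1. Per length it took 19.3% of the 4 PFKFB genes in the control (18.8 to 19.9) and 35.0% in the DSS library (34.4 to 35.5), level there with the 34.7% of Pfkfb2 (34.1 to 35.3). With coding lengths the shares in the DSS library were 41.4% for Pfkfb4 and 27.3% for Pfkfb2. Pfkfb4 against Pfkfb2 differed by 1.22 (1.14 to 1.29).

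The steps from triose phosphate to pyruvate held a group near 0 and exceptions. Pgk1, which makes the first ATP of this stretch, was at -0.10 with 134383 and 95669 counts. Pgam1, the mutase, was at 0.02 with 35432 and 27434 counts. Eno1, the common enolase, was at -0.01 with 155073 and 118011 counts. These values lay within 0.11 of 0. Pkm, the pyruvate kinase of proliferating and many adult tissues, was lower in the DSS library, at -0.61 (-0.62 to -0.60), with 192644 counts in the control and 96598 under DSS.

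Gapdh, the dehydrogenase of this stretch and one of the genes for which the study lists primers, stood apart from its neighbours. It had 154665 counts in the control and 232064 under DSS. Its scaled level went from 2161 to 4245 CPM, a 1.96-fold difference and a log2 ratio of 0.97 (0.96 to 0.98), just inside the line of 1. With total counts it was 0.72 and with upper quartile factors 1.06. Within the libraries, Gapdh against Pgk1 differed by 1.08 (1.06 to 1.09) and against Eno1 by 0.98 (0.96 to 0.99), both compared after the values were seen.

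Several of these genes have near-identical copies in the genome, and the counting of shared reads is not given in the sources used here. For Gapdh, 77 other annotated genes matched at least 200 bases of its transcript at 95% identity or more, and 75 of these are pseudogenes. The count table lists 67 of the copies. They held 223129 control counts and 327678 under DSS, 144% and 141% of the counts of Gapdh itself. Of the 62 copies past the count minimum, 61 had a log2 ratio above 0, with a median of 0.95. The same reads could count for Gapdh and for several copies, so the copies are not separate observations. Gapdh and its listed copies together were at 0.96, so the difference was about as large over the sum, while the level of Gapdh alone is uncertain. For Pgam1, 1 listed pseudogene had 13098 and 10635 counts beside the 35432 and 27434 of the gene, and the sum was at 0.04. Eno1 has 3 listed copies with 10.6% of its control counts, Eno1b among them, and the sum turned from -0.01 to 0.00. The copies of Pgk1 held 16.4%, and those of Pkm 1.36%, with sums of -0.10 and -0.61. None of the listed copies of Ldha, Ldhb or Pdhb held more than 1.10% in either library.

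The minor enolases had few reads. Eno3, the muscle enolase, had 987 counts in the control and 338 under DSS, a log2 ratio of -1.16 (-1.34 to -0.98). Eno2, the neuronal enolase, had 13 and 21 counts, a log2 ratio of 1.08 (0.02 to 2.20), which is not resolved at this depth from a value near 0. Eno1 made up over 99% of enolase per length in both libraries, 99.1% in the control (99.1 to 99.2) and 99.6% in the DSS library (99.6 to 99.6).

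Lactate dehydrogenase interconverts pyruvate and lactate. Ldha, the subunit that predominates in glycolytic tissues, had 130457 counts in the control and 119879 under DSS, a log2 ratio of 0.27 (0.26 to 0.28). Ldhb, the heart-type subunit, had 1614 and 362 counts, a 3.41-fold lower scaled level in the DSS library and a log2 ratio of -1.77 (-1.94 to -1.60). Ldhb was already a minor part, with 1.59% of the family per length in the control (1.51 to 1.67), and was 0.39% in the DSS library (0.35 to 0.43). Ldhb against Ldha differed by -2.03 (-2.20 to -1.87), the most negative of the 18 pairs of members.

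The pyruvate dehydrogenase complex carries pyruvate into the mitochondrial cycle, and the PDK kinases inhibit it. Its subunits were lower in the DSS library by nearly the same amount, Pdha1 at -0.61 with 35209 and 17623 counts and Pdhb at -0.55 with 8510 and 4448 counts. The pair difference of these subunits was -0.06 (-0.12 to -0.0037). Pdk1, a target of the hypoxia response, was at -0.66 (-0.69 to -0.63), with 24204 counts in the control and 11708 under DSS. Pdk2 had 4833 and 3807 counts, for a log2 ratio of 0.04 (-0.02 to 0.11). None of these 4 genes was past a line. Pdk1 was the leading PDK gene per length in both libraries, with 62.2% in the control (61.6 to 62.8) and 46.3% in the DSS library (45.5 to 47.0).

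Both enzymes of fructose entry were higher in the DSS library. Khk, the ketohexokinase that phosphorylates fructose, had 10645 counts in the control and 25573 under DSS. This was a 3.14-fold higher scaled level and a log2 ratio of 1.65 (1.62 to 1.69). Tkfc, which phosphorylates the glyceraldehyde made from fructose, had 21150 and 44466 counts, a 2.75-fold higher level and a log2 ratio of 1.46 (1.44 to 1.48). The ratios of both genes were close, with a pair difference of 0.19 (0.15 to 0.23). Per length they reached 329 and 361 CPM per kb in the DSS library, above every phosphofructokinase gene.

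Gluconeogenesis held the highest ratio of the 37 genes and also one of the lowest. Pck1, the cytosolic PEP carboxykinase, had 74 counts in the control and 1248 under DSS, from 1.03 to 22.8 CPM. The scaled level was 22.1-fold higher, with a log2 ratio of 4.46 (4.13 to 4.82), and 99.4% of all genes had a lower ratio. Pck2, the mitochondrial PEP carboxykinase, had 7174 and 2024 counts, a 2.71-fold lower level and a log2 ratio of -1.44 (-1.51 to -1.37). The enzymes catalyse the same reaction in separate compartments, and the pair difference of 5.90 (5.55 to 6.27) was the most positive of the 18 pairs. Pck1 took 1.30% of PEP carboxykinase per length in the control (1.02 to 1.63) and 44.1% in the DSS library (42.3 to 45.8). For the sum of both genes, the level per length went from 29.9 to 19.5 CPM per kb.

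G6pc, the glucose 6-phosphatase that releases free glucose, had 236 counts in the control and 980 under DSS, a 5.44-fold higher scaled level and a log2 ratio of 2.44 (2.24 to 2.65). Pcx, the mitochondrial pyruvate carboxylase that makes oxaloacetate, had 1704 and 3976 counts, for a log2 ratio of 1.61 (1.53 to 1.69). The fructose bisphosphatases stayed between the lines. Fbp1, the liver-type isozyme, was at -0.32 with 4614 and 2825 counts. Fbp2, the muscle-type isozyme, was at 0.52 with 9720 and 10616 counts, and it held 69.7% of the family per length in the control (69.0 to 70.4) and 80.4% in the DSS library (79.7 to 81.1). In all, 3 of 6 gluconeogenic genes were at 1 or more, 1 was at -1 or less, and 2 were between, where 19.3% and 20.2% of all genes were past these lines. The levels of Pck1, G6pc and Pcx in the DSS library were 8.58, 7.43 and 17.8 CPM per kb, against 9.28 for Hk2 and 3152 for Gapdh.

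**Figure D3:**
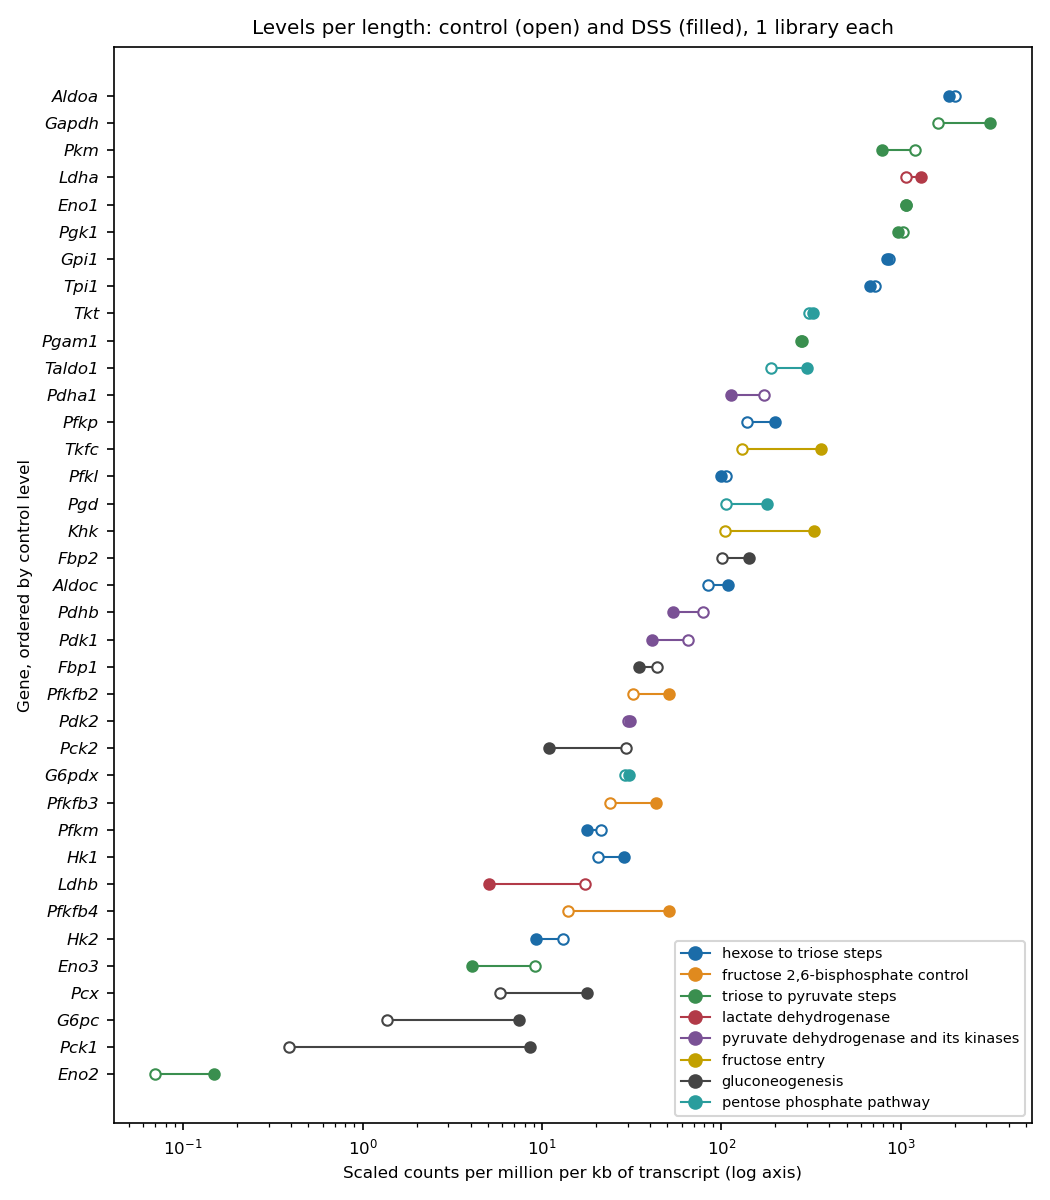
Scaled CPM per kb of transcript on a log axis for the 37 genes, ordered by the control level, with open circles for control, filled circles for DSS and colors for branches. Aldoa and Gapdh lead at 1864 and 3152 CPM per kb in DSS, and the longest lines are those of Pck1, G6pc and Pfkfb4.

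The promoters of 6 members are shown, since these genes carry the results on fructose entry, gluconeogenesis and the PFKFB enzymes. Each is the 250 bases before the annotated start, written 5′ to 3′ on the strand of the gene, from RefSeq on GRCm38.p6. Pcx, also a gluconeogenic gene at a log2 ratio of 1 or more, had 2 promoter windows and is not shown. Capitals mark matches of 4 motifs on either strand. The motif ACGTG is the core of the hypoxia response element, and the variant with another first base is GCGTG. The E-box is CACGTG, and each match of it also holds the first motif. The motif TGACG belongs to the cAMP response element.
Pck1, chr2:173152823-173153072, plus strand: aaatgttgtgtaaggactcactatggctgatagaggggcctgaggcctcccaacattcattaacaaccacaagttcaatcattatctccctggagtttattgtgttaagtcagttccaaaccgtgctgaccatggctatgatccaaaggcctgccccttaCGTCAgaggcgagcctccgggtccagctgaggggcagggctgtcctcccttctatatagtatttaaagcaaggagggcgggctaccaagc
Pck2, chr14:55540016-55540265, plus strand: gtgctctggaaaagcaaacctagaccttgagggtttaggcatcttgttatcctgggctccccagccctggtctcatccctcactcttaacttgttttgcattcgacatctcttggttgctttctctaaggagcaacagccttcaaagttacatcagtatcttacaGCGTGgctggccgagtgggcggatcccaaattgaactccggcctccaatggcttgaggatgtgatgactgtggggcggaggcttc
G6pc, chr11:101367466-101367715, plus strand: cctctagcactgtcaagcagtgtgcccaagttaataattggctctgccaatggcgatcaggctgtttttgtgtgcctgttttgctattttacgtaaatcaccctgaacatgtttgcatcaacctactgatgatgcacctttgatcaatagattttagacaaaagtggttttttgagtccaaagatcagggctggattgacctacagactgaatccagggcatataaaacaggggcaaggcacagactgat
Khk, chr5:30921309-30921558, plus strand: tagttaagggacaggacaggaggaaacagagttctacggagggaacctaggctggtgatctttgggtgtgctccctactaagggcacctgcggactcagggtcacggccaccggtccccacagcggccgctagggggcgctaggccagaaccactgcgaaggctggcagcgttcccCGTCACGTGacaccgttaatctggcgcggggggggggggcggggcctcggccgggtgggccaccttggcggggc
Tkfc, chr19:10604259-10604508, minus strand: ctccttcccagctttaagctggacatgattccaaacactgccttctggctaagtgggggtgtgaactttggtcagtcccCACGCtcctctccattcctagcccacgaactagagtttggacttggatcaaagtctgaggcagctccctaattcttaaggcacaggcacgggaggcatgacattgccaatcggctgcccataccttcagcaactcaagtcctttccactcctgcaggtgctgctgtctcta
Pfkfb4, chr9:108991652-108991901, plus strand: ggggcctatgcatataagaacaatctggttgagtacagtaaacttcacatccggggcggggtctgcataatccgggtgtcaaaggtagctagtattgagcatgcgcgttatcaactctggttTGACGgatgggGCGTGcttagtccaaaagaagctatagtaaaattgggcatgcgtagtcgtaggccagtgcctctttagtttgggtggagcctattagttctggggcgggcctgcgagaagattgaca
The Pck1 sequence holds 1 TGACG, on the opposite strand, 90 bases before the start. The Khk sequence holds the E-box CACGTG, which reads as the first motif on both strands, starting 71 bases before the start, and an overlapping TGACG. Pck2 and Tkfc hold 1 GCGTG each and none of the other motifs. Pfkfb4 holds 1 GCGTG and 1 TGACG. None of the 4 motifs is in the G6pc sequence.

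Over promoter windows that also include 50 bases after the start, all 37 genes matched and had 55 windows. ACGTG was found for 18 of the 37 genes, or 48.6%, against 23.2% of 17492 protein-coding genes. GCGTG was found for 23 genes, or 62.2%, against 41.4%, CACGTG for 8, or 21.6%, against 8.91%, and TGACG for 13, or 35.1%, against 26.2%. Members had more windows per gene than coding genes did, and by window the shares were 40% against 20.9% of 21263 windows for ACGTG, 52.7% against 38.5% for GCGTG, 14.5% against 7.84% for CACGTG and 27.3% against 23.6% for TGACG. Among the 7 genes at a log2 ratio of 1 or more, Khk and Pcx had CACGTG. The other members with it, Pfkm, Pfkfb2, Pfkfb3, Ldha, Pdk2 and Fbp2, were between the lines. ACGTG was found for 4 of 7 triose to pyruvate genes, 5 of 9 hexose to triose genes and 2 of 3 PFKFB genes. It was found for 1 of 2 lactate dehydrogenase, 2 of 4 pyruvate dehydrogenase and PDK, and 1 of 2 fructose entry genes. For gluconeogenesis it was 2 of 6, and for the pentose phosphate pathway 1 of 4. These are matches of letters, with no measurement of binding. The coding genes compared here were not limited to those past the count minimum, which all 37 members passed. The shares among genes past it were not computed.

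The 4 pentose phosphate genes were all above 0 with TMM factors, and none was past the line of 1. Of all genes, 48% were above 0 and 19.3% at 1 or more. Pgd, which makes NADPH at the second oxidative step, had 16764 and 21786 counts and a log2 ratio of 0.77 (0.74 to 0.80). Taldo1, the transaldolase, was at 0.67 (0.64 to 0.70) with 16624 and 20251 counts. G6pdx, which opens the pathway, was at 0.06 with 5521 and 4410 counts, and Tkt, the transketolase, was at 0.07 with 71011 and 57021 counts. With total counts, G6pdx and Tkt lay below 0. The members of each arm thus differed from one another. Pgd against G6pdx was 0.70 (0.64 to 0.77), and Tkt against Taldo1 was -0.60 (-0.63 to -0.57).

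The plot of pair differences collects these comparisons, which hold whatever the scaling between libraries. Of the 18 pairs of members, all had an interval that did not include 0. These intervals cover counting error only and narrow with more counts, so that of Pdha1 against Pdhb left out 0 at -0.06. The share among other pairs of genes was not computed, and of the intervals of single genes 18.6% included 0. The isozyme that was more abundant per length in the control kept the larger part in both libraries for the phosphofructokinases, enolases, lactate dehydrogenases, fructose bisphosphatases and PEP carboxykinases. The order changed in the PFKFB genes, where Pfkfb4 was the least abundant of the 3 members in the control and was above Pfkfb3 in the DSS library.

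**Figure D4:**
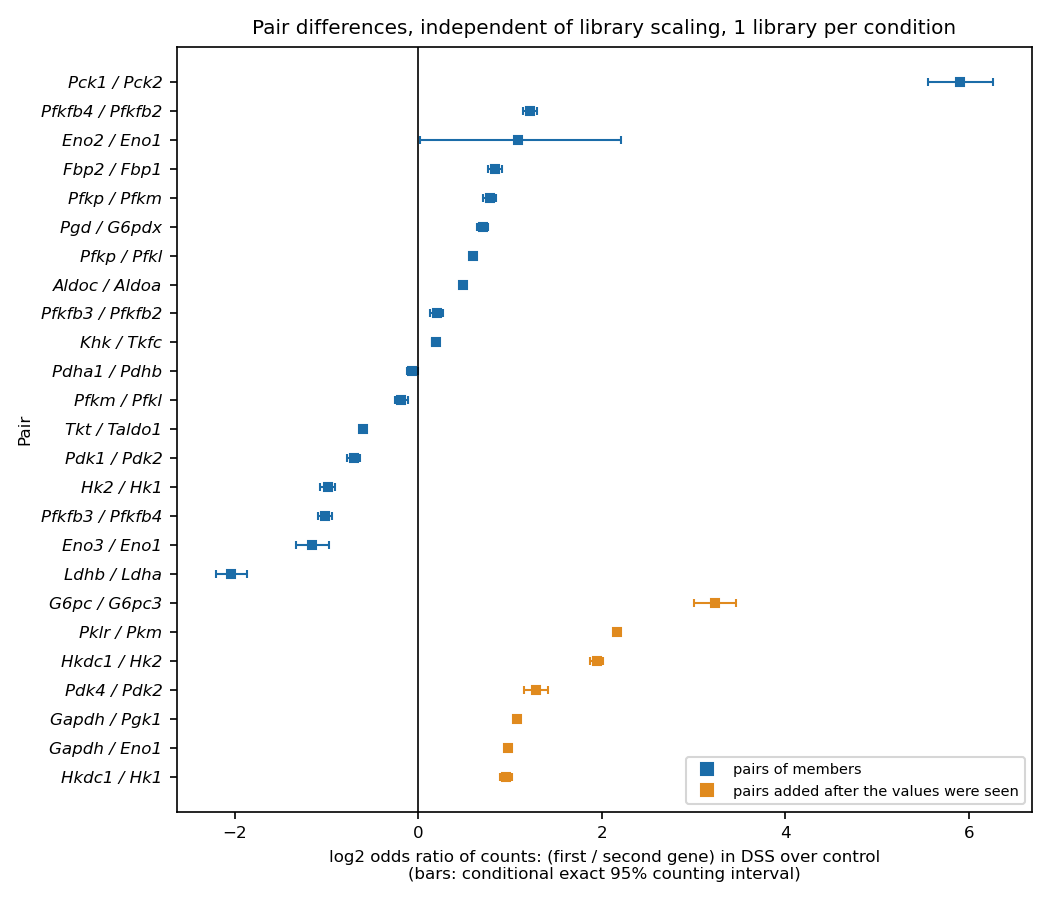
Log2 odds ratio of the counts of 2 genes, first over second gene and DSS over control, with conditional exact 95% counting intervals, in blue for pairs of members and in orange for pairs added after the values were seen. Pck1 against Pck2 at 5.90 and Ldhb against Ldha at -2.03 are the ends of the blue pairs.

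Other genes of these pathways were taken from a written list of 77 genes, of which 68 are in the table and 67 passed the count minimum. Of the 67, 13 reached 1 or more, while 8 lay at -1 or less, and the median was 0.23. The shares of all genes past these lines were 19.3% and 20.2%. Hkdc1, a further hexokinase, was at 1.45 with 11378 and 23758 counts. Pklr, the pyruvate kinase of liver and red cells, was at 1.56 with 25593 and 57508 counts. Adpgk, which uses ADP to phosphorylate glucose, was lower, at -1.43.

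Set against the members, these isozymes took other shares of several families under DSS, as the plot of isozyme shares shows. Pklr took 9.46% of pyruvate kinase in the control (9.35 to 9.57) and 31.9% in the DSS library (31.7 to 32.1), and Pklr against Pkm differed by 2.16 (2.14 to 2.19). Of the sum of Hk1, Hk2 and Hkdc1, Hkdc1 held the largest part in both libraries, with 57.4% (56.8 to 58.1) and 76.5% (76.0 to 76.9), and Hk2 went from 16.6% (16.2 to 17.0) to 5.74% (5.54 to 5.96). G6pc took 4.42% of glucose 6-phosphatase in the control (3.88 to 5.01) and 30.3% in the DSS library (28.6 to 32.0). The rest was the broadly expressed G6pc3, at -0.79 with 3328 and 1472 counts. For the sum of both genes, the level per length went from 30.9 to 24.5 CPM per kb. These shares use the median length of the annotated transcripts, and with coding lengths Pck1 was at 39.8% and Pklr at 36.1% in the DSS library.

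**Figure D5:**
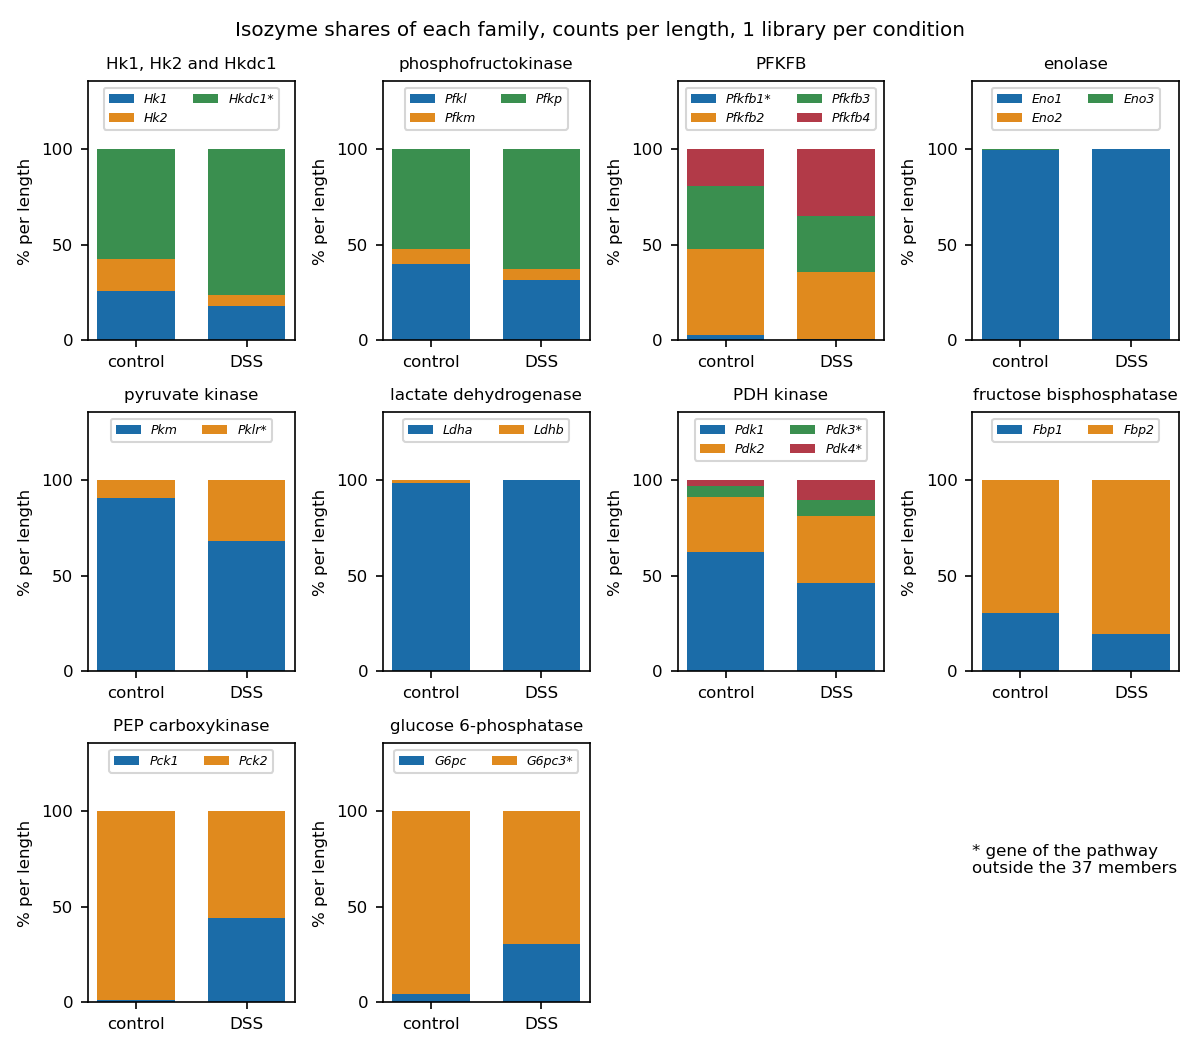
Share of each family in percent of CPM per kb, in the control and DSS libraries, with one color per gene and asterisks for genes outside the 37. The orange part of Pklr goes from 9.46% to 31.9%, and the blue part of Pck1 from 1.30% to 44.1%.

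At the fate of pyruvate, Pdk4, the kinase known for its induction by fasting, was at 1.32 with 929 and 1777 counts. Slc16a1, a lactate and pyruvate transporter, was at -1.11 with 12279 and 4355 counts. Dlat, the E2 subunit of pyruvate dehydrogenase, was at -0.67, near Pdha1 and Pdhb, while Dld, shared with other complexes, was at -0.09. In the pentose phosphate pathway, Rpia, the ribose 5-phosphate isomerase, was at -1.40, and Shpk and Rbks, which phosphorylate sugars at its edge, were at 1.55 and 1.14. Of all genes, 19.3% were past the line of 1 and 20.2% past that of -1. Of 12 further genes of gluconeogenesis and the redox shuttles, 3 were past the line of 1 and 2 past that of -1. The higher ones were Gk, the glycerol kinase, at 2.99, and the glycerol phosphate dehydrogenases Gpd1 at 1.40 and Gpd2 at 1.21. The lower ones were Gpd1l at -1.37 and Got2, the mitochondrial aspartate aminotransferase, at -1.02. In the route for sugars other than glucose, Glyctk was at 1.42 and Akr1b3, the aldose reductase, at -1.30.

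Marker genes of several cell types differed along with these results. All 6 enterocyte markers were at 1 or more, and their summed level went from 1495 to 19058 CPM. The same held for 5 of 5 goblet and 5 of 5 enteroendocrine markers. Among these, Muc2 was at 4.98 and Chga at 2.60. By RT-PCR, the study reports that Muc2 and Chga stayed at similar levels under DSS, and that Lgr5 and Lyz decreased. All 5 stem cell markers and 4 of 5 proliferation markers were at -1 or less, with sums of 832 and 130 CPM and of 1165 and 229 CPM. The label calls the cells intestinal stem cells, and Lgr5 itself went from 263 CPM in the control to 19.2 CPM in the DSS library. In bulk RNA, fewer cells of a type and less RNA per cell cannot be told apart. The part of enterocyte, stem and proliferating cells in the differences of Khk, Tkfc, Pck1, G6pc, Hk2, Pkm and Ldhb was not tested.

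The 5 hepatocyte markers went both ways. Their summed level was 1006 CPM in the control and 400 CPM in DSS, nearly all of it Cps1 at -1.41 and Ttr at -0.75. Alb was at 0.87 and 2.01 CPM, and Serpina1a at 0.28 and 0.44 CPM. Of the skeletal muscle markers, Ckm, Myh4 and Tnnt3 are not in the table, and Acta1, which belongs to the closely similar actins, went from 85.7 to 177 CPM, and Mb from 1.16 to 1.63 CPM. Mesenchymal markers summed to 0.50 and 0.93 CPM with Col1a2, Col3a1 and Dcn not listed, and endothelial markers to 0.87 and 1.39 CPM. Immune markers summed to 7.15 and 12.8 CPM with Ptprc, Cd3e and Adgre1 not listed, and consisted of Itgam at 5.24 and 11.5 CPM and Lyz2 at 1.91 and 1.30 CPM. All 5 Paneth cell markers were below 0, and of the tuft cell markers 4 were listed, all below 0.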

How the data were processed

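The mRNA of 1 untreated and 1 DSS-treated organoid culture was sequenced. The values deposited by the authors are read counts of each gene, as whole numbers that were not normalized. The submitters' processing notes name HISAT2 and StringTie, and their versions, the genome build and the treatment of shared reads are not given in the sources used here. The files of the single samples are named FPKM but hold the same counts for all 19294 genes and were not used. The lowest listed count is 1, so a gene at 0 in either culture is not listed.

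Counts were scaled with TMM factors of edgeR 4.0.16 under R 4.3.3, 1.09 for the control and 0.915 for DSS. Ratios, Clopper-Pearson intervals (95%) and conditional exact intervals for pairs were computed with R, numpy 2.4.6, scipy 1.17.1 and pandas 2.3.3 under Python 3.11.15, and tested on simulated counts. Counts of genes cover those that reached 10 counts in the control or DSS. As each condition has 1 library, nothing was tested, and the lines of 1 and -1 on the log2 scale describe size. Intervals cover counting error only. Molecular identifiers are not mentioned in the sources used here. Lengths were the median of GENCODE vM21 transcripts that share a RefSeq accession with the table, which all 37 members have. Copies were searched with blastn 2.17.0. Plots used matplotlib 3.10.9.

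The members and lists were chosen with earlier results of these data known. All 37 members are named. Some genes outside the 37 are not reported here. Other genes of the pathway are named where past a line with at least 50 counts in one library. Dlat, Dld, G6pc3, Pfkfb1 and the regulators were named after their values were seen. The scaling was repeated with size factors of DESeq2 1.42.0, with total counts only and with upper quartile factors. Other alternatives were centring on the median, a prior count of 2, thinning and other count minimums. The summed copies, the coding lengths, the 7 added pairs and the ratio to other triose to pyruvate genes were chosen after seeing the data.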

Additional observations from a re-analysis of the deposited data

How the results depend on the processing

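The number of members at a log2 ratio of 1 or more was between 6 and 8 under all scalings, count minimums and a prior count of 2, and the number at -1 or less was 3 in each. With a line of 2, 2 members were above and 0 below. Of the triose to pyruvate genes, 1 was at 1 or more, which became 0 with total counts, a prior count of 2 or a minimum of 50 counts, through Eno2, and 2 with upper quartile factors or centring on the median, through Gapdh. The median of the 37 genes was -0.19 with total counts, 0.15 with upper quartile factors and 0.12 with centring. Total counts lowered every gene by 0.26, and 15.4% of all genes were then at 1 or more and 26.2% at -1 or less. Signs changed for 4 members with total counts, 3 with upper quartile factors, 2 with centring and 1 with DESeq2 size factors, all of them within 0.1 of 0. No member past a line changed direction there or relative to the other triose to pyruvate genes, where Gapdh was at 1.2. The 25 pair differences stayed within their intervals with a prior count of 2 and with thinning. No paired analysis was possible because each condition has 1 library. Depth limits Eno2 most, with 13 and 21 counts, and the variation between cultures is unknown for all 37 genes.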

Other observations

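Genes of galactose and glycogen metabolism, outside the 37 members, went both ways. Of the 15 past the count minimum, 4 were at a log2 ratio of 1 or more and 2 at -1 or less, with a median of 0.23, where 19.3% and 20.2% of all genes were past these lines. Galm, which converts the forms of galactose, was at 1.07 with 9056 and 14516 counts, and Pgm2 was at 1.18. Gbe1, the glycogen branching enzyme, was at 1.14. Pygm, the muscle glycogen phosphorylase, was at 2.87 with 44 and 246 counts, and Gyg, which primes glycogen, was at -1.54 with 811 and 213 counts. Pgm2l1 was at -1.37.

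None of the 12 genes listed as regulators of the sugar and oxygen response was past the line of 1 or that of -1. The upper line was reached by 19.3% of all genes and the lower line by 20.2%. The regulators named here were picked once their values had been seen. Mlxipl, the carbohydrate response factor ChREBP, was at -0.10 with 30130 and 21441 counts, and Txnip, one of its best known targets, was at -0.13 with 88485 and 61600 counts. Hif1a was at 0.78 and Egln3, a hypoxia-inducible hydroxylase, at 0.47. Ppargc1a, a coactivator of gluconeogenic genes, was at 0.96 with 1520 and 2263 counts. These are mRNA levels, and the activity of these factors was not measured.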
